A study of Sus scrofa with 6 samples.

Results

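The enzymes of mitochondrial fatty acid oxidation were followed in pig germinal vesicle oocytes, whose meiosis has not yet resumed. The 10 genes chosen by name were CPT1A, CPT2, ACADVL, ACADM, ACADS, HADHA, HADHB, ACAA2, ETFA and ETFB. Of these, 9 had values, among 19300 genes in all, and CPT1A is not analysed here because no oocyte had a value for it. The groups were 3 BCB-positive and 3 BCB-negative oocytes, 1 oocyte to a library, without maturation culture. The dye brilliant cresyl blue (BCB) is one that growing oocytes reduce to a colourless form, so an oocyte that stays blue is generally taken as fully grown. All oocytes came from antral follicles of 3 to 6 mm, lay in at least 3 layers of cumulus cells when collected, and were stripped of cumulus and zona pellucida before lysis. The labels give no breed, age or animal for any oocyte.

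Beta-oxidation shortens fatty acids inside mitochondria and delivers acetyl-CoA to the citric acid cycle. Acyl groups enter through the carnitine shuttle, are dehydrogenated by acyl-CoA dehydrogenases of different chain-length preference, and are then hydrated, oxidised again and cleaved by a thiolase. Electrons taken by the dehydrogenases pass to electron transfer flavoprotein and on to ubiquinone. Pig oocytes are known for their large store of lipid droplets, and fatty acid oxidation is regarded as one of their fuel routes.

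Libraries held between 7122749 and 9238987 expected counts, and between 10729 and 11751 genes reached 1 FPKM, a level corrected for transcript length and for library depth. The oocytes of a class are given below in the order 1, 2, 3. BCB-positive oocyte 3 stood apart. Its log2(FPKM + 1) values had a mean Pearson correlation of 0.874 with the other oocytes across genes, against 0.905 to 0.915 for the rest, and 9.80% of its counts went to its 10 leading genes, against 15.6% to 19.0% elsewhere. Of 15 oocyte markers, 14 had a value and 13 averaged 1 FPKM or more, led by the zona pellucida genes ZP3 and ZP4 with means of 11426 and 5380 FPKM. The levels of the others reached down to means of 5.62 FPKM for KIT, 2.80 FPKM for DAZL and 0.373 FPKM for NOBOX, which were named after their values were seen, and KIT alone of the 13 met the rule set out below, as higher in BCB-positive oocytes. Of 18 cumulus and granulosa markers, 11 had a value, and FSHR, LHCGR, FOXL2 and AMHR2 had none. The summed level of these markers ranged from 38.0 to 51.6 FPKM in BCB-positive and from 31.0 to 45.6 FPKM in BCB-negative oocytes, most of it from INHBA and FST. Summed markers of theca and stroma reached at most 3.33 FPKM in BCB-positive and 3.34 FPKM in BCB-negative oocytes. Those of blood and immune cells, of which 3 of 8 had a value, summed to 2.93 to 5.13 FPKM in BCB-positive and 0.90 to 2.21 FPKM in BCB-negative oocytes, without overlap. Endothelial markers, led by TEK and PECAM1, summed to at most 23.0 FPKM in BCB-positive and 15.6 FPKM in BCB-negative oocytes. Because the labels name no animal and a library is 1 cell, a class was handled as a single sample with 3 cells, and no p-value or standard error was computed. A gene met the rule used here where the classes did not overlap and their means of log2(FPKM + 1) were 1.5-fold or more apart.

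ETFA, the alpha subunit of electron transfer flavoprotein, was the highest of the enzymes in 6 of 6 oocytes and the 1 gene of the 9 that met the rule, being higher in BCB-positive oocytes. HADHA, the alpha subunit of the trifunctional protein, was next in level and also had a higher mean in BCB-positive oocytes, but the classes overlapped. CPT2, the acyl-CoA dehydrogenases, HADHB, ACAA2 and ETFB overlapped between classes, each with a spread between oocytes larger than the difference. Among all 11495 genes that averaged 1 FPKM or more, 5.75% met the rule as higher and 2.66% as lower in BCB-positive oocytes, 8.41% in either direction, and 7.44% were higher without overlap whatever the size. The share of the enzymes that met it as higher, 11.1%, rests on 1 gene, and 0 met it as lower. The median difference over the 9 enzymes was 0.03 on the log2 scale, against 0.11 over all genes compared. Without BCB-positive oocyte 3, 0 of the 8 enzymes still above the filter met the rule, where 7.21% of genes did as higher and 4.41% as lower.

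**Figure D1:**
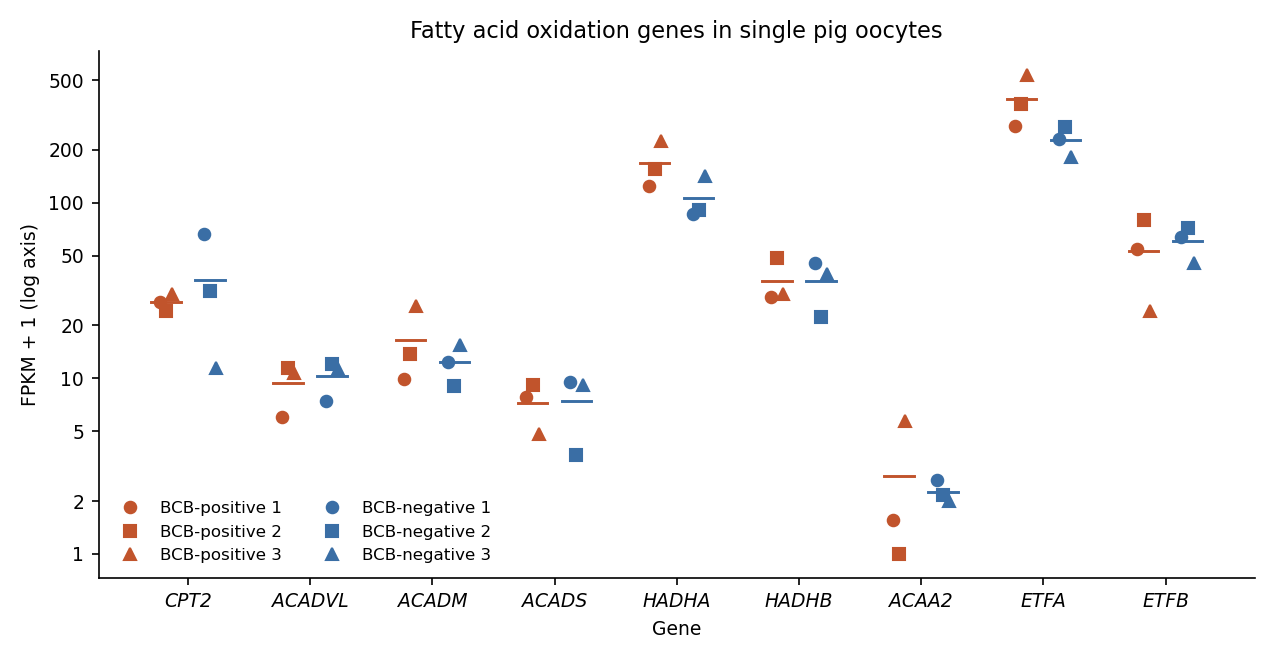
FPKM + 1 on a log axis for the 9 enzymes with values, in pathway order, with 1 symbol per oocyte (BCB-positive left, BCB-negative right) and a bar at the class mean. ETFA and HADHA stand above the rest in every oocyte, and the classes are separate for ETFA alone.

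By mean FPKM over the 6 oocytes the order was ETFA at 309, HADHA at 136, ETFB at 55.7, HADHB at 34.8, CPT2 at 30.9, ACADM at 13.4, ACADVL at 8.81, ACADS at 6.37 and ACAA2 at 1.52 FPKM. ETFA exceeded HADHA, and HADHA exceeded ETFB, in 6 of 6 oocytes. Lower down, neighbours in the order changed places: HADHB exceeded CPT2 in 3 oocytes and ACADVL exceeded ACADS in 4. ETFA lay above 96.5% of the genes compared and HADHA above 91.8%, whereas ACADM lay above 58.8% and ACAA2 above 9.31%. ETFA and HADHA together made up between 61.0% and 85.9% of the summed FPKM of the enzymes in an oocyte, so a sum over the enzymes largely follows these genes. That sum was 526, 698 and 885 FPKM in BCB-positive oocytes 1, 2 and 3, against 516, 504 and 450 FPKM in BCB-negative oocytes 1, 2 and 3. The lowest BCB-positive oocyte was above the highest BCB-negative one by a narrow margin. The sum averaged 703 ± 179 FPKM in BCB-positive and 490 ± 34.9 FPKM in BCB-negative oocytes (SD over 3 oocytes each), and 612 FPKM in BCB-positive oocytes without oocyte 3. As a share of the library, the enzymes took 0.0890%, 0.114% and 0.154% of expected counts in BCB-positive oocytes, against 0.0883%, 0.0812% and 0.0798% in BCB-negative oocytes.

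At the entry step, carnitine palmitoyltransferase 1 on the outer membrane makes acylcarnitine and carnitine palmitoyltransferase 2 on the inner membrane turns it back to acyl-CoA. CPT2 had 26.1, 23.3 and 29.4 FPKM in BCB-positive oocytes, against 65.5, 30.4 and 10.4 FPKM in BCB-negative oocytes. The BCB-positive values lay inside the wide BCB-negative range, which was 6.30-fold from its lowest to its highest oocyte, and the log2 difference was -0.08 (SD 0.91; throughout, pooled over the oocytes within classes). Without BCB-negative oocyte 3, the lowest of them, CPT2 met the rule as lower in BCB-positive oocytes, at -0.75. So did 570 of 11531 genes compared in that setting, against 306 of 11495 with all oocytes. CPT1B and CPT1C, the other genes for carnitine palmitoyltransferase 1, were named after their values were seen. CPT1B held 3 counts over the BCB-positive and 0 over the BCB-negative oocytes, and CPT1C held 0 over the BCB-positive and 12 over the BCB-negative oocytes. SLC25A20, the carnitine-acylcarnitine translocase of the inner membrane, was also named after its values were seen. It had 2.0, 1.62 and 6.07 FPKM in BCB-positive oocytes, against 2.13, 2.69 and 3.30 FPKM in BCB-negative oocytes. CPT1B and CPT1C did not reach 1 FPKM in any oocyte, so the outer membrane step had no gene with more than trace counts among those with values.

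The acyl-CoA dehydrogenases catalyse the first oxidation, with ACADVL acting on very long, ACADM on medium and ACADS on short chains. ACADM had 8.85, 12.8 and 24.96 FPKM in BCB-positive oocytes, against 11.5, 8.05 and 14.5 FPKM in BCB-negative oocytes. Its log2 difference was 0.34 (SD 0.57) and became -0.05 without BCB-positive oocyte 3, its highest oocyte. ACADVL had 5.0, 10.4 and 9.72 FPKM in BCB-positive oocytes, against 6.47, 11.0 and 10.3 FPKM in BCB-negative oocytes, a difference of -0.15 (SD 0.45). ACADVL overlaps DLG4 and DVL2 in the reference annotation, and DVL2 stood at 3.14 to 7.63 FPKM, so its values are uncertain. ACADS had 6.81, 8.17 and 3.83 FPKM in BCB-positive oocytes, against 8.57, 2.64 and 8.17 FPKM in BCB-negative oocytes, with a difference of 0.04 (SD 0.65). The classes overlapped for all 3 genes. Expected counts in an oocyte lay between 109 and 411 for ACADM, 83 and 191 for ACADVL and 37 and 122 for ACADS, so single values of ACADS in particular are coarse. Summed, the 3 dehydrogenases were at 30.2 ± 8.99 FPKM in BCB-positive and 27.0 ± 5.64 FPKM in BCB-negative oocytes (SD over 3 oocytes each), or 3.93% to 7.31% of the summed level of the enzymes.

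The trifunctional protein carries out the later steps for long chains. HADHA holds its hydratase and long-chain hydroxyacyl-CoA dehydrogenase activities and HADHB its thiolase, and the genes lie next to each other in the reference annotation. HADHA had 123, 154 and 224 FPKM in BCB-positive oocytes, against 85.2, 90.5 and 141 FPKM in BCB-negative oocytes. BCB-negative oocyte 3 lay above BCB-positive oocyte 1, so the classes overlapped, and the log2 difference of 0.65 (SD 0.42) became 0.42 without BCB-positive oocyte 3. HADHB had 27.9, 47.6 and 29.3 FPKM in BCB-positive oocytes, against 44.3, 21.4 and 38.5 FPKM in BCB-negative oocytes, a difference of 0.03 (SD 0.48). HADHA exceeded HADHB in 6 of 6 oocytes. Their ratio of FPKM was 4.42, 3.24 and 7.66 in BCB-positive oocytes, against 1.92, 4.23 and 3.68 in BCB-negative oocytes, and overlapped between classes with a log2 difference of 0.63 (SD 0.62).

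For shorter chains the same steps are catalysed by separate enzymes, the hydratase ECHS1 and the dehydrogenase HADH, which were named after their values were seen. ECHS1 had 205, 282 and 48.3 FPKM in BCB-positive oocytes, against 163, 225 and 194 FPKM in BCB-negative oocytes, with BCB-positive oocyte 3 lowest of all. Its log2 difference was -0.44 (SD 0.96), and 0.32 without that oocyte. HADH had 54.8, 46.2 and 87.9 FPKM in BCB-positive oocytes, against 58.5, 39.7 and 32.9 FPKM in BCB-negative oocytes, a difference of 0.50 (SD 0.44) with overlapping classes.

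ACAA2, the mitochondrial thiolase of medium chains, was near the detection limit. It held 5, 0 and 50 counts in BCB-positive oocytes, against 14, 10 and 8 counts in BCB-negative oocytes, which is 0.56, 0 and 4.74 FPKM in BCB-positive oocytes, against 1.64, 1.16 and 0.99 FPKM in BCB-negative oocytes. The high oocyte was BCB-positive oocyte 3, and the other BCB-positive oocytes lay below all 3 BCB-negative ones. Summed over a class the counts were 55 in BCB-positive oocytes (95% exact Poisson interval 41.4 to 71.6) and 32 in BCB-negative oocytes (21.9 to 45.2), intervals that overlap and cover counting error only. ACAA2 was the lowest of the enzymes in 5 of 6 oocytes. Of the other mitochondrial thiolases, ACAT1, which also splits acetoacetyl-CoA, had 43.8, 78.0 and 76.6 FPKM in BCB-positive oocytes, against 53.2, 33.9 and 29.6 FPKM in BCB-negative oocytes. ACAT1, named after its values were seen, overlapped between classes at 0.75 (SD 0.45).

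Electron transfer flavoprotein is a dimer of the ETFA and ETFB products. ETFA had 274, 362 and 535 FPKM in BCB-positive oocytes, against 230 (229.66), 268 and 182 FPKM in BCB-negative oocytes. The classes did not overlap, but the gap was narrow, with BCB-positive oocyte 1 at 273.64 FPKM and BCB-negative oocyte 2 at 267.77 FPKM. ETFA averaged 391 ± 133 FPKM in BCB-positive and 227 ± 42.9 FPKM in BCB-negative oocytes (SD over 3 oocytes each), with a log2 difference of 0.75 (SD 0.40). Without BCB-positive oocyte 3 the order held, as leaving out an oocyte cannot undo it, while the difference became 0.49 and no longer reached 1.5-fold. Counts were ample, at 13535 in BCB-positive oocytes (13308 to 13765) and 6825 in BCB-negative oocytes (6664 to 6989), intervals that do not cover losses or amplification in single cells. The summed cumulus and granulosa markers given above overlapped between classes. Of the 3 compared, HSD17B1, named after its values were seen, met the rule, with 2.25, 1.64 and 1.78 FPKM in BCB-positive oocytes, against 0.15, 1.31 and 0.16 FPKM in BCB-negative oocytes. INHBA and FST, more abundant and also compared, overlapped between classes, with log2 differences of 0.30 and -0.15. Over all genes compared, 5.75% met the rule as higher. STAR, also named after its values were seen, averaged 0.72 FPKM and so was not compared. Its classes did not overlap either, with 1.56, 1.79 and 0.40 FPKM in BCB-positive oocytes, against 0.05, 0.37 and 0.16 FPKM in BCB-negative oocytes. The blood and immune sum did not overlap, and in it CD3E, the most abundant marker of that list, met the rule. CD3E had 4.54, 4.6 and 2.37 FPKM in BCB-positive oocytes, against 0.90, 0.11 and 1.19 FPKM in BCB-negative oocytes. CD14, the other leading marker of that list, went the other way. It had 0.59, 0 and 0 FPKM in BCB-positive oocytes, against 0, 1.65 and 1.02 FPKM in BCB-negative oocytes. PTPRC, the general leukocyte marker, also named after its values were seen, was at 0 in every oocyte but BCB-positive oocyte 3, at 0.56 FPKM. The part of these markers in the ETFA difference was not tested.

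ETFB showed no such separation. It had 53.9, 79.2 and 23.0 FPKM in BCB-positive oocytes, against 62.9, 71.3 and 44.1 FPKM in BCB-negative oocytes, with a log2 difference of -0.33 (SD 0.68) and of 0.16 without BCB-positive oocyte 3. That oocyte had the highest ETFA and the lowest ETFB of the 6. The ETFA to ETFB ratio was 5.08, 4.57 and 23.2 in BCB-positive oocytes, against 3.65, 3.76 and 4.13 in BCB-negative oocytes. The ratio was thus higher in each BCB-positive oocyte, by 1.08 on the log2 scale (SD 0.93) with all oocytes and by 0.33 (SD 0.10) without BCB-positive oocyte 3. The size of the difference in ratio therefore came mostly from that oocyte.

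**Figure D2:**
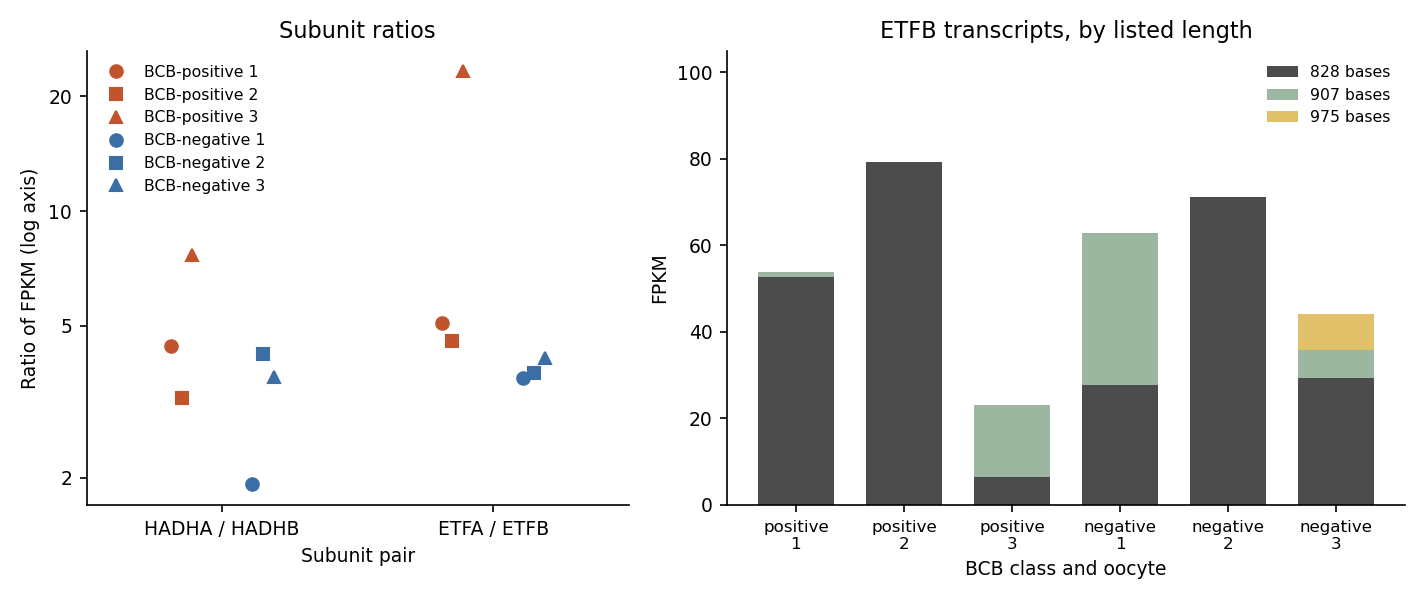
Left, the ratio of FPKM between subunits of 1 protein in each oocyte on a log axis; right, FPKM of the 3 listed ETFB transcripts in each oocyte, stacked. The ETFA to ETFB ratio of BCB-positive oocyte 3 stands far above the rest, at 23.2, and the transcript make-up of ETFB varies within both classes.

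BCB-positive oocyte 3 was the highest oocyte for 4 of the 9 enzymes, ACADM, HADHA, ACAA2 and ETFA, and the lowest for 1, ETFB. Relative to the mean of the other oocytes on the log2 scale it was higher by 1.69 for ACAA2 and 1.13 for ACADM. HADHA was higher by 0.95 and ETFA by 1.06, while ETFB was at -1.37 and ACADS at -0.62. The enzymes thus lay on both sides of the other oocytes in this library. By the length given for each gene, ETFB was the shortest of the enzymes, at 828 to 885 bases across oocytes, and HADHA and CPT2 were the longest, at 2712 and 3032 bases. Next above ETFB in length came ACAA2, HADHB and ETFA, at 1194, 1329 and 1406 bases. Of these, ACAA2 and ETFA were higher in BCB-positive oocyte 3, as given above, and HADHB was at -0.23. CPT2 was 0.14 higher in that oocyte, and the part of length in these values was not tested. A scaling that equalised medians of gene length classes, described below, gave differences between BCB classes of 0.64 for ETFA and 0.41 for HADHA.

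**Figure D3:**
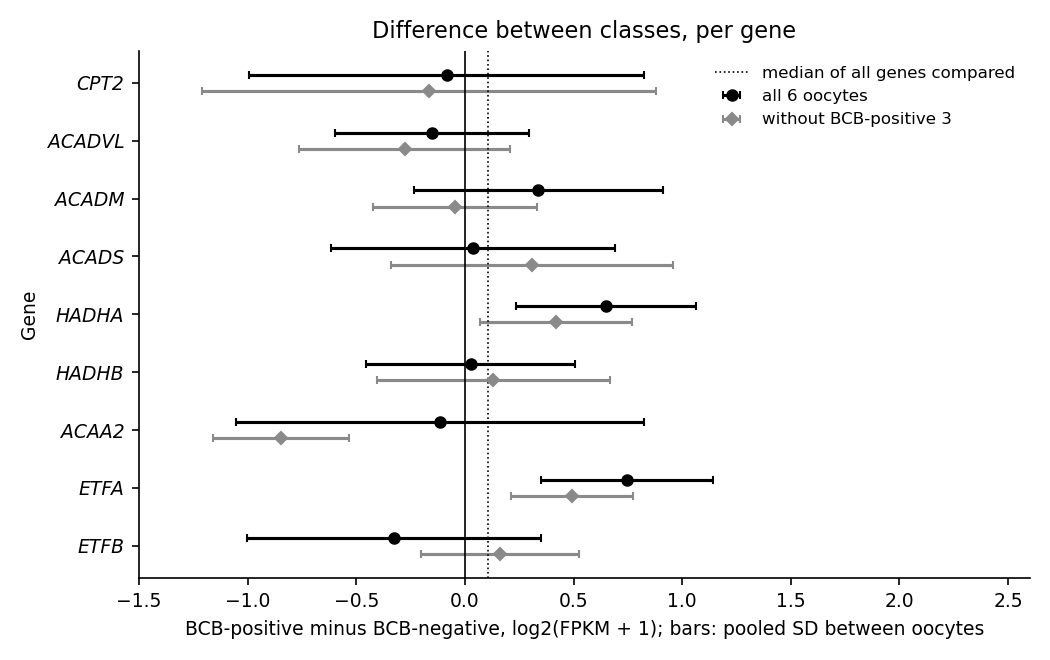
BCB-positive minus BCB-negative difference of mean log2(FPKM + 1) for each enzyme, with bars of the pooled SD between oocytes, for all 6 oocytes (circles) and without BCB-positive oocyte 3 (diamonds). ETFA and HADHA lie right of 0 by more than their SD in both, at 0.75 and 0.65 with all oocytes.

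Of the 9 enzymes, 3 had more than 1 transcript in their gene row. ETFB was the gene whose transcripts varied most. Its 828-base transcript made up 97.6%, 100% and 28.2% of its FPKM in BCB-positive oocytes, against 44.2%, 100% and 66.4% in BCB-negative oocytes. A transcript of 907 bases took 71.8% in BCB-positive oocyte 3 and 55.8% in BCB-negative oocyte 1, and another, of 975 bases, had counts in BCB-negative oocyte 3 alone. The make-up was not ordered by class, with a mean share of the 828-base transcript of 75.3% in BCB-positive and 70.2% in BCB-negative oocytes. For ACADS the 1899-base transcript held 91.9% to 100% of the level in every oocyte, and for ACADVL 1 of its 3 transcripts held all counts. With 20 percentage points as the least difference, 0 transcripts were ordered by class.

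The wider pathway was described by 8 lists with 99 genes, of which 91 had a value and 69 averaged 1 FPKM or more. Among the 69, 1 gene met the rule as higher and 1 as lower in BCB-positive oocytes, or 1.45% in each direction, against 5.75% and 2.66% of all genes compared. The higher gene was ACADSB, the dehydrogenase of short branched chains. It had 2.09, 4.01 and 3.21 FPKM in BCB-positive oocytes, against 0.76, 1.57 and 0 FPKM in BCB-negative oocytes, a log2 difference of 1.28 (SD 0.55) and of 1.25 without BCB-positive oocyte 3. The lower gene was SLC52A2, a transporter of riboflavin, the vitamin from which the FAD of the dehydrogenases and of electron transfer flavoprotein is made. It had 2.89, 3.96 and 3.84 FPKM in BCB-positive oocytes, against 7.31, 6.46 and 5.89 FPKM in BCB-negative oocytes, a difference of -0.73 (SD 0.17) and of -0.78 without BCB-positive oocyte 3. Both genes were low and were separate between classes, which leaving out an oocyte cannot undo.

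**Figure D4:**
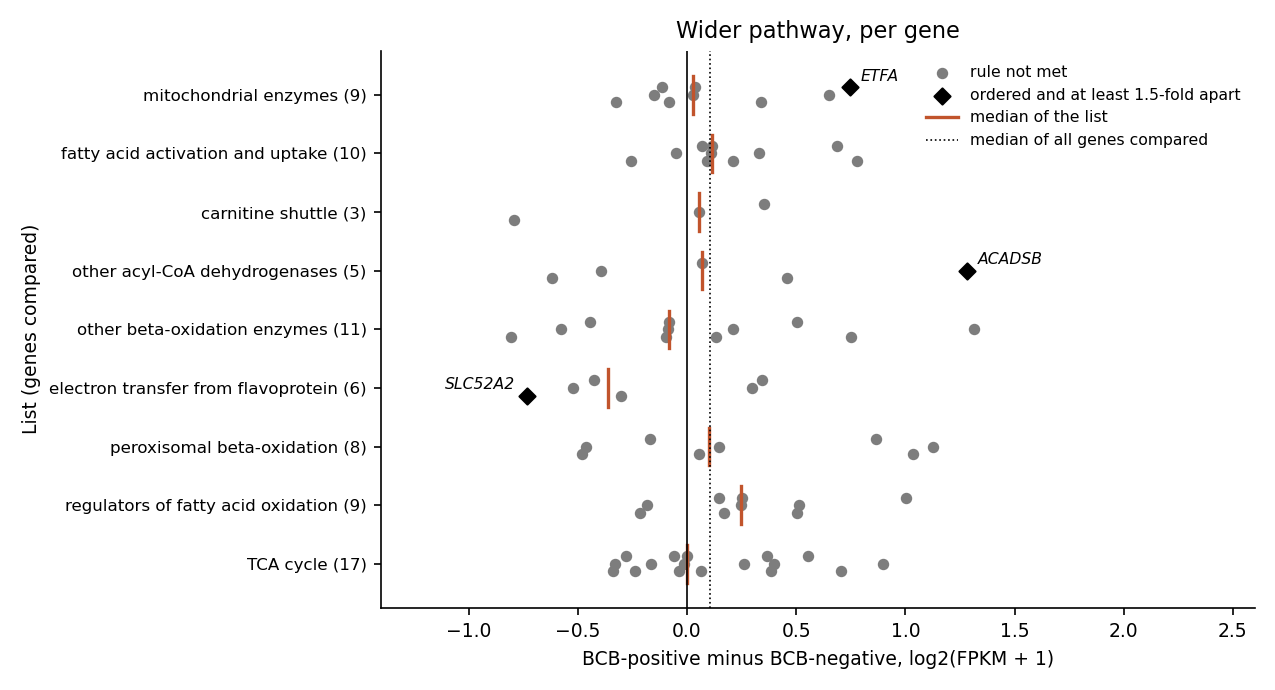
Difference of mean log2(FPKM + 1) between BCB-positive and BCB-negative oocytes for each gene of the 9 enzymes and of the 8 lists of the wider pathway, with the median of each list and of all genes compared. ETFA, ACADSB and SLC52A2 are the genes that met the rule, and list medians lie between -0.36 and 0.25.

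In fatty acid uptake and activation, 0 of 10 genes met the rule and the median difference was 0.11. The acyl-CoA synthetases ACSL5 and ACSL3 had the largest differences, 0.78 (SD 0.73) and 0.69 (SD 0.77), and became 0.35 and 0.11 without BCB-positive oocyte 3. The rest of the carnitine shuttle had 3 genes compared and 0 that met the rule. CRAT, carnitine acetyltransferase, had 10.7, 4.03 and 5.69 FPKM in BCB-positive oocytes, against 13.0, 13.5 and 9.08 FPKM in BCB-negative oocytes, a difference of -0.79 (SD 0.48) with overlapping classes. CROT, its peroxisomal relative for medium chains, differed by 0.35 (SD 0.55).

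Among the 5 other acyl-CoA dehydrogenases compared, ACADSB alone met the rule and the median difference was 0.07. Of 11 other enzymes of mitochondrial beta-oxidation and its side steps, 0 met the rule, and the median was -0.08. PCCA, a subunit of propionyl-CoA carboxylase, which handles the end product of odd chains, differed by 1.31 (SD 0.77), and MCEE, the epimerase of the next step, by -0.81 (SD 0.84). PCCA had 3.65, 12.1 and 17.7 FPKM in BCB-positive oocytes, against 2.33, 3.94 and 3.51 FPKM in BCB-negative oocytes, so BCB-positive oocyte 1 lay inside the BCB-negative range. The 6 genes of electron transfer and FAD supply had a median of -0.36, with SLC52A2 as the 1 lower gene and 0 higher. ETFDH, which passes electrons from electron transfer flavoprotein to ubiquinone and was named after its values were seen, had 3.84, 6.94 and 16.6 FPKM in BCB-positive oocytes, against 8.10, 6.65 and 3.73 FPKM in BCB-negative oocytes.

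Peroxisomal beta-oxidation had 0 of 8 genes that met the rule and a median of 0.10. AMACR, a racemase of branched chains, and ABCD3, a transporter of the peroxisomal membrane, differed by 1.13 (SD 0.69) and 1.04 (SD 0.77). ABCD3 had 16.8, 31.8 and 78.5 FPKM in BCB-positive oocytes, against 16.1, 17.5 and 16.0 FPKM in BCB-negative oocytes, and became 0.46 without BCB-positive oocyte 3. Of 9 regulators, 0 met the rule, with a median of 0.25. Over all genes compared, 7.44% were higher without overlap whatever the size. PRKAB1, a regulatory subunit of AMP-activated protein kinase, was the 1 without overlap among the 9 regulators compared and was named after its values were seen. It had 147, 168 and 187 FPKM in BCB-positive oocytes, against 113, 131 and 108 FPKM in BCB-negative oocytes, a difference of 0.51 (SD 0.16) that stayed under 1.5-fold. PPARD, a nuclear receptor that drives fatty acid oxidation genes, differed by 1.00 (SD 0.75), and ACACA, an acetyl-CoA carboxylase that makes malonyl-CoA, by 0.51 (SD 0.41); PPARD overlapped between classes through BCB-negative oocyte 2, at 16.3 FPKM. In the citric acid cycle 0 of 17 genes met the rule and the median was 0.00. SUCLG2, a subunit of succinyl-CoA ligase, differed by 0.90 (SD 1.64) and citrate synthase CS by 0.70 (SD 0.34). CS had 67.1, 107 and 118 FPKM in BCB-positive oocytes, against 69.2, 53.9 and 52.0 FPKM in BCB-negative oocytes, and BCB-positive oocyte 1 lay just below BCB-negative oocyte 1.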

How the data were processed

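Per the labels' protocols, primers with a poly(dT) tail started cDNA synthesis in the lysate of each oocyte, PCR amplified it, and 1 sequencer lane took all libraries; no molecular identifiers are named. Sscrofa10.2 is the genome build and RSEM, BWA and Cufflinks are the tools listed, without role or version, in the submitters' processing notes. The deposited expected counts are estimates and can be fractional. The authors scaled the deposited FPKM to length and depth. A gene missing from an oocyte was set to 0, and a gene missing from all was not analysed. Symbols came from a table of Sscrofa11.1 by NCBI gene ID, which matched 13936 genes; the other 5364 held 8.67% to 10.2% of counts and stayed in all totals.

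Differences are BCB-positive minus BCB-negative means of log2(FPKM + 1), a scale that understates those of low genes, over genes averaging 1 FPKM or more. The named genes were the members, every list gene that met the rule, or else the 2 with the largest difference in a list, and the leading markers; genes said in the text to be named after their values were seen stand outside this rule. Members and lists were chosen with earlier results of these data known. Other pseudocounts, scalings and filters, CPM, ratios of means and leaving out each oocyte were tried; equalising the median of 20 gene length classes was added after seeing the data. Python 3.11.15, numpy 2.4.6 and pandas 2.3.3 were used.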

Additional observations from a re-analysis of the deposited data

How the results depend on the processing

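ETFA was higher in BCB-positive oocytes under all 15 alternatives and met the rule in 12. Filters, pseudocounts, the ratio of means and leaving out an oocyte cannot end the separation of its classes, so these counts overstate stability. Only the scalings could end it, and it held with a common sum of FPKM and with CPM. The alternatives in which ETFA did not meet the rule were leaving out BCB-positive oocyte 3, at 0.49, and 2 scalings that ended the separation of its classes, median-of-ratios size factors at 0.64 and equal medians of gene length classes at 0.64. The number of enzymes called higher was then 0, and lay between 0 and 2 as each oocyte was left out in turn, with 0 to 1 called lower. HADHA joined ETFA without BCB-positive oocyte 1 or BCB-negative oocyte 3. Calls over all genes also rose there, with fewer oocytes to order. Higher genes were 1586 of 11512 without BCB-positive oocyte 1 and 1023 of 11531 without BCB-negative oocyte 3, against 661 of 11495 with all oocytes. As each oocyte was left out, the median difference of the enzymes ranged from -0.024 to 0.28, the highest without BCB-negative oocyte 1; under size factors it was -0.075 and with equal length class medians -0.14. In the same way the ratio difference ranged from 0.28 to 0.91 for HADHA to HADHB and from 0.33 to 1.501 for ETFA to ETFB. Of 133 recomputed differences of single enzymes, 133 stayed within 1 SD. Much of this was fixed beforehand. With 3 oocytes a class, leaving out 1 cannot move a difference by 1 SD, and the filters leave it unchanged. The count is therefore no measure of stability.

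In the wider lists, 2 genes were called higher with FPKM rescaled to a common sum, 0 with a mean of at least 5 FPKM, and 0 higher and 0 lower with a pseudocount of 5 FPKM. With equal length class medians 3 were lower. Leaving out an oocyte gave 2 to 13 higher, 13 without BCB-positive oocyte 1, and 2 to 3 lower, with fewer oocytes to order. Among all genes compared, the same step gave 817 to 1586 higher and 500 to 797 lower. The 1586 were of 11512 genes, without BCB-positive oocyte 1. Over all genes, the main calls were 661 higher and 306 lower, against 517 and 430 under size factors, 818 and 225 with a common sum, and 421 and 512 with equal length class medians, which moved the median of all genes to -0.05. No paired analysis was possible because the results come from no test, and the labels tie no BCB-positive oocyte to a BCB-negative one. ACAA2 and ACADSB rest on few counts, and differences near 1.5-fold are not resolved with 3 cells a class.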
